A study of Homo sapiens with 3 samples.

Results

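The vehicle-treated A549 cells of a cordycepin study were described on their own, from the single array hybridized with their RNA. A549 is an established human lung adenocarcinoma line with features of alveolar type II cells. The members were the named genes on that array. Of 22439 genes with a named probe, 15385 (68.6%) were well above background and 7054 were not. The array is 1 of 3 in the series, and no ratio to the other arrays was formed.

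The series asked which genes respond when A549 cells are kept with cordycepin, an adenosine analog lacking the hydroxyl at the 3' carbon of its ribose, or with cordyceps, the fungus it comes from. The control cells received 0.1% DMSO for 48 h, the other cells 60 μg/mL cordycepin or 100 μg/mL cordyceps. By the sample labels all cells were kept at 37 °C with 5% CO2 in DMEM that held penicillin-streptomycin (1%) and fetal bovine serum (10%) and, as further additions, zinc sulfate at 16.7 μM, troglitazone at 10 μM and nicotinamide at 10 mM. The methods of the study name DMEM, serum and antibiotics and none of the last 3 additions, so the sources differ on the medium behind the control state. The line is a single tumor-derived culture, and 1 array was run per condition, so no value has a replicate and nothing was tested.

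A cell's lineage is read from the transcription factors and structural proteins it keeps on. Alveolar type II cells make surfactant proteins and lipid, type I cells form the thin gas exchange surface, and the airway holds club, goblet, ciliated and basal cells. A549 cells are known for an inactivated KEAP1, the protein that marks the transcription factor NRF2 for degradation, for the loss of STK11 and SMARCA4 function, and for a deletion on the short arm of chromosome 9 that takes CDKN2A, CDKN2B and MTAP. NRF2 drives genes of glutathione and thioredoxin chemistry, of the pentose phosphate route and of aldehyde and ketone reduction.

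Each probe carries a background-subtracted signal in arbitrary units, and a gene is given by its brightest probe. Normalized values are log2 signal minus the 75th percentile of the array, a signal of 260.1. A gene is called bright when it lies among the top 10.0% of named genes (2244 genes, a signal of 4791 or more), dim when it was detected below the median of detected genes (a signal under 599, 34.3% of named genes), middle when between, and not detected when its brightest probe was not well above background. Probes of different sequence bind their targets with different strength, so the classes order probe brightness and not transcript numbers. Counts over the lists below are to be read against the 68.6% detected and 10.0% bright of all named genes. Signals ran from 3.68 to 417234. The 303 negative control spots had a median of 4.55 and a highest value of 7.65, and 0 of them were well above background. A gene called not detected can still lie above these spots, 95% of which were under 5.15, so its signal is given where the call matters. The edge of detection was not at one signal, since the call is made spot by spot: ABCB5, a membrane transporter, was detected at 18.6, while SNORD84, a small nucleolar RNA, was not at 25.9. Of the 300 probes printed 10 times, 288 were detected. Spots of these 288 differed by a median SD of 0.060 on the log2 scale, which is the error of printing and scanning alone.

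**Figure D1:**
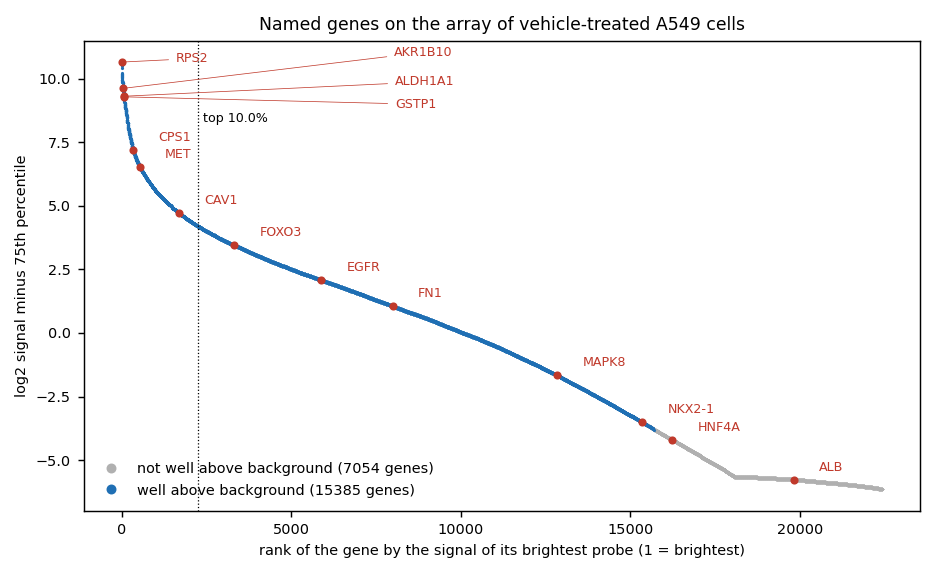
Log2 processed signal minus the 75th percentile of the array (vertical axis) of the 22439 named genes in order of brightness (horizontal axis), for the 1 array of vehicle-treated A549 cells. Blue points were well above background (15385 genes) and grey points were not (7054 genes), the dotted line closes the top 10.0%, and the red points name genes described in the text.

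Probes of one gene often disagreed. Of 6753 genes with more than 1 named probe, both of the 2 brightest probes were detected in 3973, 1 of them in 1253 and neither in 1527. Where both were detected the brighter one was a median of 3.64-fold above the other, with an upper quartile of 9.85-fold. In 276 genes the gap was over 100-fold. Of the 2244 bright genes, 1394 had a single probe, and of the 850 with a second probe 200 (23.5%) had a second bright one. The gap between probes is therefore far larger than the spot error, and below the second probe is given for each bright gene named whose second probe was not bright. For the middle and dim genes it is given in part. With every probe of a gene required to be detected, 13834 genes (61.7%) remained.

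**Figure D2:**
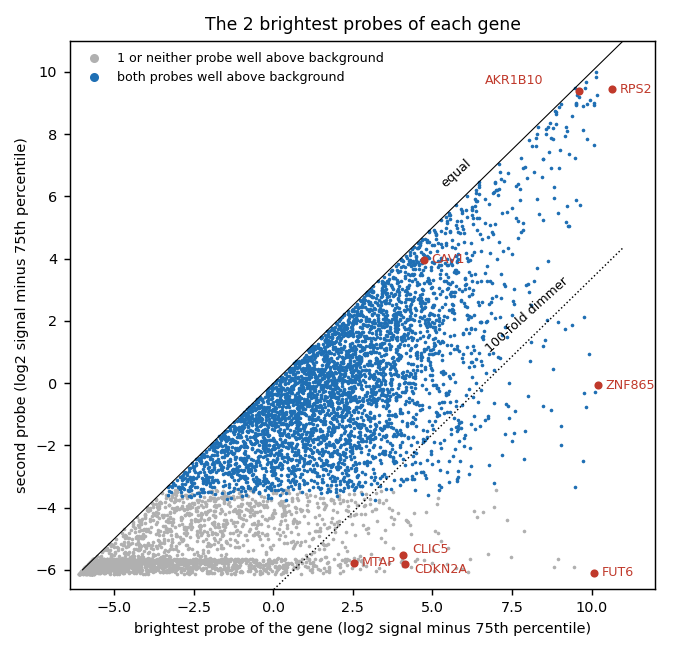
Normalized log2 signal of the second brightest probe (vertical axis) against that of the brightest probe (horizontal axis) for the 6753 genes with more than 1 named probe. Blue points had both probes well above background, grey points 1 or neither, the solid line marks equal signals and the dotted line a second probe 100-fold dimmer, and FUT6, CDKN2A, CLIC5 and MTAP lie below it.

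The brightest genes belonged to translation. Of the 30 brightest named genes, 18 encode ribosomal proteins, led by RPS2 at 417234, whose second probe read 180525. RPS18 (302811 and 158525), RPL23A (295671 and 263400) and RPS19 (294088 and 237058) likewise had a second bright probe. Of the 10 ribosomal protein genes among the 30 that had a second probe, 9 had it within 4-fold, and RPL13 had 283942 and 52583. EIF1, which helps to select the start codon, read 266540 from a single probe. The 28S ribosomal RNA gene RNA28SN5 (355665) and the small NF90-associated RNAs SNAR-A3 (374993), SNAR-B2 (309452) and SNAR-D (251793) were also in this group, each with 1 probe, and the SNAR genes are near-identical copies whose signals cannot be told apart.

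Other entries among the 30 rested on 1 probe out of several. ZNF865, a zinc finger gene, read 305141 on one probe and 250 on the next. GPR155 read 287721 and 214, and EXOSC2, a subunit of the RNA exosome, read 251693 and 500. FUT6, a fucosyltransferase, read 284204 on one probe, while the other was not detected at 3.80. The gaps ran from 503-fold for EXOSC2 to 74747-fold for FUT6, and their cause was not tested. SLC66A1, a lysosomal amino acid transporter (293681), and CYP2W1, a cytochrome P450 (266963), had 1 probe each. KRT18, a keratin of simple epithelia, was the last of the 30 outside the ribosome, at 240731 and 59197.

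By class of transcript, 13497 of 18216 protein-coding genes were detected (74.1%), 1273 of 3246 long noncoding RNA genes (39.2%) and 213 of 285 small nucleolar RNA genes (74.7%). Protein-coding genes were bright in 11.7% of cases, long noncoding RNA genes in 1.76% and small nucleolar RNA genes in 0.702%.

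The letters upstream of protein-coding genes differed most between the detected classes and the genes not detected. RefSeq gives a promoter stretch in build GRCh38.p14 for 16975 of the 22439 named genes, 14630 of them protein-coding, and the 250 bases before the first listed start were read for each. The median number of CG pairs in them was 21 for bright, 22 for middle, 18 for dim and 6 for not detected genes, over 1762, 4280, 4959 and 3629 promoters. TATAAA on the strand of the gene stood in 5.51% of bright, 3.32% of middle, 5.00% of dim and 12.5% of not detected genes. The share was 6.43% over the protein-coding named genes and 7.17% over all 27305 promoters in the table. CCGCCC, the letters of a GC box searched on both strands, stood in 70.5% of bright, 68.7% of middle, 59.6% of dim and 35.4% of not detected genes. The share was 57.6% over the protein-coding named genes and 42.3% over all promoters. These are counts of letters over genes, which are not replicates, and a single gene need not follow them. Of the promoters below, with CG in capitals, AGR2 was bright with 3 CG pairs, MAPK8 dim with 38, and ALB not detected with 3.
AGR2 (signal 35763, chr7:16805000-16805249, minus strand): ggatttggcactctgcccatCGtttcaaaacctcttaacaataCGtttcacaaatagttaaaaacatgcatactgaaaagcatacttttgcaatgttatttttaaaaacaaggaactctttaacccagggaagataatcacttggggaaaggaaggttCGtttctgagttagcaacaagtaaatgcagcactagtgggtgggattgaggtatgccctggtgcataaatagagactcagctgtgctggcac
MAPK8 (signal 81.8, chr10:48306427-48306676, plus strand): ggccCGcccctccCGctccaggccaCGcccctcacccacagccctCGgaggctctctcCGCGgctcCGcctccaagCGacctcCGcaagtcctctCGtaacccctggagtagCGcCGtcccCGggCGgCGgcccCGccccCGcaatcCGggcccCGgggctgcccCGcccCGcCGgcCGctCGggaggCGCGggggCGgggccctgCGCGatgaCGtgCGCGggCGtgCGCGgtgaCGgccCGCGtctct
ALB (signal 4.78, chr4:73404037-73404286, plus strand): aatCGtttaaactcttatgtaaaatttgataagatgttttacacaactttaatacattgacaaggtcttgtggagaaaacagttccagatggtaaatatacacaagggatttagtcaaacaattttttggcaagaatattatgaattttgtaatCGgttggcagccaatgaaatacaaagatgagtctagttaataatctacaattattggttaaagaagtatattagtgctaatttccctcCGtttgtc

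The labelled cell type was checked first against epithelial genes. Of 20 epithelial genes, 17 were detected and 7 were bright (35.0%, against 10.0% of all named genes). The keratins of simple epithelia led, with KRT18 at 240731, KRT7 at 175892 and KRT8 at 39643, 2373 and 441 on its 3 probes. The desmosomal genes PKP3 (10218), JUP (7130) and DSP (6168, second probe 2379) were bright, as was CDH1 (6231), the adhesion protein of epithelial junctions. EPCAM, another surface protein of epithelia, was in the middle class at 1066. ESRP1, a splicing factor of epithelial cells, GRHL2, a transcription factor, and RAB25, a trafficking protein, were not detected, at 14.6, 8.08 and 7.31.

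Genes of mesenchymal cells were detected in 13 of 23 cases (56.5%) and bright in 2 (8.70%), both below the 68.6% and 10.0% of all named genes. The bright ones were VIM, the intermediate filament vimentin (113086), and S100A4 (37193), a calcium-binding protein. CDH2, the cadherin of mesenchymal cells, read 1668, and ZEB1, a repressor of CDH1, read 1000, each with both of its probes detected. FN1, fibronectin, was dim at 537. The fibrillar collagen genes COL1A2 (4.76) and COL3A1 (5.14) and the fibroblast genes FAP, POSTN, LUM and DCN were not detected, whereas COL1A1 was dim at 337.

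Alveolar type II genes were detected in 12 of 15 cases (80%, against 68.6% of all named genes), and 0 were bright (against 10.0%). ABCA3, the lipid transporter of lamellar bodies, was the brightest at 1913, with LPCAT1, which makes surfactant lipid, at 814. SFTPC, the most restricted of the surfactant proteins, was dim at 85, NAPSA, which processes surfactant proteins, was dim at 84.6, and SFTPD was dim at 40.7. SFTPB (6.09), SFTPA1 (14.9) and the phosphate transporter SLC34A2 (3.91) were not detected. SFTPA2 was in the middle class at 1510 on one probe, but its other probe, to the same transcript, was not detected at 5.31. NKX2-1, the transcription factor that sets lung identity and drives surfactant genes, was detected at 22.7, near the edge. So ABCA3 and LPCAT1 gave clear signals, whereas the surfactant genes and NKX2-1 were dim, not detected or read by probes that disagree, and the cells are called A549 cells here with no cell type name. With every probe required, 7 of the 15 genes were detected.

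Of 10 alveolar type I genes, 8 were detected (80%, against 68.6% of all named genes) and 1 was bright (10%, the share of all named genes). That gene was CAV1 (6882), the coat protein of caveolae, and its partner CAV2 read 981. EMP2, a membrane protein, read 3802. CLIC5 read 4393 on 1 probe while its other 2 were not detected at 5.69 and 4.74, and AGER, the defining receptor of type I cells, had 1 of 3 probes detected, at 268. PDPN (3.85) and HOPX (18.7), further markers of the type, were not detected. With every probe required, 5 of the 10 genes were detected.

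The airway types differed. Among 11 club and goblet genes 7 were detected (63.6%, against 68.6% of all named genes). The 2 bright ones (18.2%, against 10.0%) were AGR2 (35763), a chaperone of mucin folding, and SCGB3A1 (16021), a secretoglobin. SCGB1A1, the secretoglobin that defines club cells, was dim at 101, and BPIFA1, BPIFB1 and TFF3 were not detected. Among 11 ciliated cell genes 5 were detected (45.5%), all dim, and FOXJ1, which drives the ciliated program, was not detected at 11.6. Among 13 basal and squamous genes only SOX2 (2682) and KRT15 (617) were detected (15.4%). KRT5, KRT14 and TP63, which define basal cells, were not, at 4.15, 4.39 and 7.44. Under the looser call of a positive and significant signal the detected genes numbered 11 of 11 for club and goblet, 10 of 11 for ciliated and 7 of 13 for basal and squamous cells.

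Neuroendocrine genes were detected in 5 of 13 cases (38.5%, against 68.6% of all named genes), and 1 was bright (7.69%, against 10.0%). UCHL1, a ubiquitin hydrolase of neurons and neuroendocrine cells, was bright at 79543, and ENO2 read 1723. INSM1 and NEUROD1, factors of that lineage, and SYP, a synaptic vesicle protein, were not detected, all between 4.82 and 5.08. Of 13 neuronal genes 8 were detected (61.5%) and 2 were bright (15.4%), RBFOX3 at 12832 (second probe 1526) and SNAP25 at 4984. STMN2, DCX and GAP43 were not detected.

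**Figure D3:**
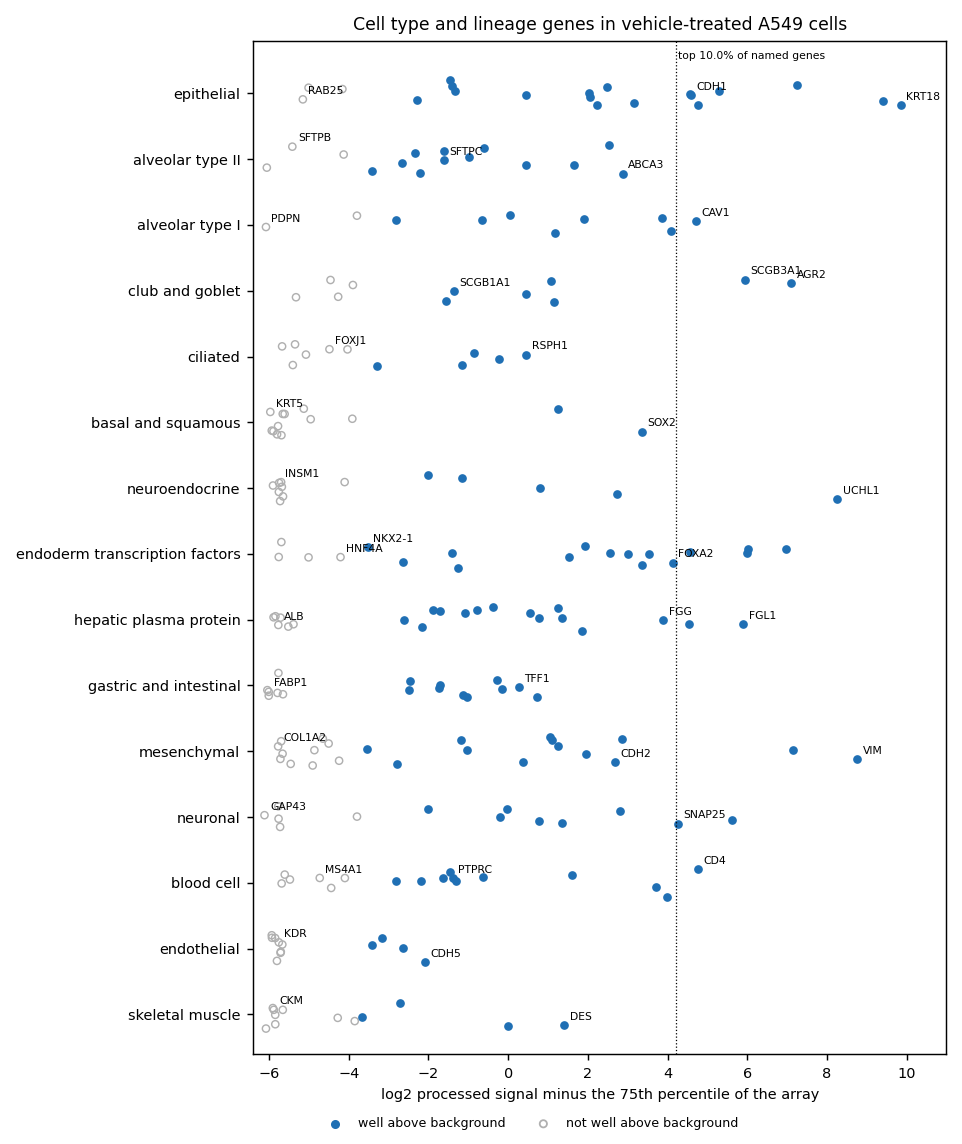
Normalized log2 signal (horizontal axis) of the genes of 15 cell type and lineage lists in vehicle-treated A549 cells, 1 point per gene by its brightest probe, filled where well above background and open where not. Points right of the dotted line are in the top 10.0% of named genes. Epithelial genes reach KRT18 at 240731, while 11 of 13 basal and squamous genes and 8 of 12 endothelial genes were not detected.

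Genes of other endodermal organs were detected about as often as named genes in general. Of 21 genes for plasma proteins made in liver 15 were detected (71.4%, against 68.6%), and 2 were bright (9.52%, against 10.0%), FGL1 (15502), a fibrinogen-like protein, and APOH (6054). The fibrinogen chains FGG, FGB and FGA read 3869, 938 and 380. ALB, albumin, and AFP, its fetal counterpart, were not detected at 4.78 and 6.22, nor were APOB, APOA2, APOC3 and SERPINC1. Gastric and intestinal genes were detected in 10 of 16 cases (62.5%, below the 68.6% of all) and all were dim, up to 429 for CDX1, which had 1 of its 3 probes detected.

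Endoderm transcription factors were detected in 15 of 19 cases (78.9%, against 68.6% of all named genes), and 4 were bright (21.1%, against 10.0%). These were CEBPB (32622) and CEBPD (16955), which act in acute phase and lipid gene control, ID2 (16582), an inhibitor of basic helix-loop-helix factors, and ELF3 (6110), an epithelial ETS factor. No FOXA, GATA, HNF or SOX factor of the list was bright. FOXA2 (4572), which drives liver and gut genes, was in the middle class with GATA6 (754) and FOXA1 (991). HNF4A, the hepatocyte factor, was not detected at 14.1, nor was PDX1 of the pancreas. GATA4 was dim at 41.7 with 2 of 3 probes detected.

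Lists for endothelial, muscle and blood cells and for cancer-testis genes were read for comparison, and their detected shares differed too much to give 1 background. Endothelial genes were detected in 4 of 12 cases (33.3%, against 68.6% of all named genes), none above 61.3 (CDH5), with KDR, TEK and FLT1 not detected. Skeletal muscle genes were detected in 4 of 12 (33.3%), with the filament gene DES at 692 the brightest and MYOD1 and CKM not detected. Blood cell genes were detected in 11 of 17 (64.7%), and 1 was bright (5.88%, against 10.0%). CD4 was bright at 7032, CD79A read 4093 and CD14 3387, each from 1 probe, whereas PTPRC, the leukocyte marker CD45, had 2 of 5 probes detected, at 99.5 and 36.3, and MS4A1 and CD3E were not detected. Cancer-testis genes were detected in 5 of 14 (35.7%), with PRAME at 717 the brightest.

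Gene families for cell shape and contact were uneven. Of 52 keratin genes 20 were detected (38.5%, against 68.6% of all named genes). Bright were 6, a share close to the 10.0% of all named genes. Besides KRT18, KRT7 and KRT8 these were KRT81 (210584) and KRT83 (11978, second probe 1321), keratins of hair that are near-identical to each other and to KRT86, which has no named probe, so that their signals are uncertain, and KRT10 (23178), a keratin of the upper epidermis. Of 23 claudins, the proteins of tight junctions, 11 were detected (47.8%) and 1 was bright (4.35%). The bright one was CLDN2, which forms a cation channel, at 39572, while CLDN18, the claudin of lung and stomach, was not detected at 3.94. Of 14 mucins 8 were detected (57.1%) with MUC4 the brightest at 3353. Each of the 6 detected mucins with more than 1 probe also had a probe that was not detected, as MUC1 did at 352 and 11.2.

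Among 26 integrins 22 were detected (84.6%, against 68.6% of all named genes). Their bright share was close to the 10.0% of all named genes. ITGB4 (19071), the hemidesmosome chain, ITGAV (6269) and ITGB1 (6045) were bright, and ITGA3 (4392) and ITGA6 (1735), the chains that bind laminin, were in the middle class. Laminins, their ligands in the basement membrane, were bright in 4 of 12 cases (33.3%): LAMB1 (34307), LAMB2 (7625, second probe 1678), LAMB3 (6503) and LAMC1 (4798). LAMA1, the embryonic alpha chain, was not detected at 8.72.

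HOX genes, which mark position along the body axis, were detected in 28 of 39 cases (71.8%, against 68.6% of all named genes) with 0 bright (against 10.0%). The HOXA cluster had 9 of 11 detected, HOXB 9 of 10, HOXC 5 of 9 and HOXD 5 of 9. HOXB6 (4262), HOXA10 (3378, second probe 107), HOXA3 (2651), HOXB9 (2593) and HOXB5 (2205), the last of these active in lung development, were the brightest. The HOXD genes detected lay between 23.7 and 422.

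Metabolic genes as a whole were bright more often than the other classes. Of 276 genes in the metabolic lists 226 were detected (81.9%) and 81 were bright (29.3%), against 68.6% and 10.0% of all named genes. The lineage lists had 224 of 381 detected (58.8%) and 8.66% bright, and the signaling lists 271 of 326 (83.1%) and 10.7%. The lists were assembled with results of these data known, so these shares describe the lists and were not tested.

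NRF2 target genes were the brightest list. All 33 with a probe were detected, 22 were bright (66.7%), 10 were in the middle class and 1 was dim. The iron store FTH1 had 230385, 186049 and 86467 on its 3 probes, and FTL had 83168, 77682 and 63261. Of the aldo-keto reductases, which reduce aldehydes and ketones, AKR1B10 read 203896 and 172186, AKR1C3 196226, and AKR1C1 156753 and 71593. The AKR1C genes are close paralogs, so signal may be shared among them and AKR1C2, which has no named probe.

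The thioredoxin system and glutathione synthesis were represented in the same list. TXN read 122054, PRDX1 81093 and 66923, and SRXN1, which repairs peroxiredoxins, 9371. GCLM, the modifier subunit of the enzyme that makes glutamylcysteine, read 24096, the catalytic subunit GCLC 2342, and SLC7A11, the cystine importer, 7525. GPX2, a glutathione peroxidase, read 22894. HMOX1, heme oxygenase, was bright at 11222. NQO1, a quinone reductase often used as the reporter of this program, was in the middle class at 1121, TXNRD1 at 1243, and OSGIN1 was the one dim member at 174. The regulators themselves were read less surely. KEAP1 read 1077, and NFE2L2, the gene of NRF2, had 1 probe, which was not detected at 4.70.

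The antioxidant response element to which NRF2 binds has the core TGACNNNGC. Of the 23 NRF2 targets with a promoter in the RefSeq table, 7 held it on either strand within 250 bases before the start (30.4%). The core stood in 1684 of 14630 protein-coding named genes and in 3013 of all 27305 promoters (11%). The metallothionein and zinc transport list held it more often, in 9 of 27 promoters (33.3%). Drug metabolism and efflux genes had it in 6 of 27 and aldehyde dehydrogenases in 0 of 14. The core was thus not particular to the NRF2 list. The 7 stretches of NRF2 targets are given so that the neighbouring letters can be compared. Each is written along its gene with the core in capitals and 16 bases on either side. A match is a description of letters and not a binding site, and elements farther away are not seen.
TXNRD1 (chr12:104215664-104215704, plus strand, 99 bases before the start): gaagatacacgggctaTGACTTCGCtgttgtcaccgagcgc
GCLM (chr1:93909440-93909480, minus strand, 34 bases before the start): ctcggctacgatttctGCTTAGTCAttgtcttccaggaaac
PGD (chr1:10398847-10398887, plus strand, 201 bases before the start): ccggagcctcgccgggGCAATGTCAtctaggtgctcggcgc
ME1 (chr6:83431164-83431204, minus strand, 137 bases before the start): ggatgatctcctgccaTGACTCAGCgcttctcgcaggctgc
GPX2 (chr14:64942843-64942883, minus strand, 122 bases before the start): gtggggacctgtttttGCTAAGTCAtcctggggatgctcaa
CBR1 (chr21:36069849-36069889, plus strand, 159 bases before the start): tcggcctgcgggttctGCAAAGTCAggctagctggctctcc
CYP4F11 (chr19:15934999-15935039, minus strand, 156 bases before the start): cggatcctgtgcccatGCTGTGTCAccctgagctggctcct
TXNRD1 and ME1 held the core on the strand of the gene and the other 5 on the opposite strand. Their signals ran from 703 for ME1 and 1019 for CYP4F11, whose second probe read 73.0, to 22894 for GPX2 and 24096 for GCLM, so genes with the core were in the bright and the middle class alike.

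Aldehyde and drug metabolism had further bright members. Of 18 aldehyde dehydrogenases 16 were detected and 6 were bright, led by ALDH1A1, which makes retinoic acid and marks stem-like tumor cells, at 164494 on one probe and 8515 on the other. ALDH3A1 (21995 and 7890), ALDH2 (17256) and ALDH3A2 (16118) followed, and ALDH1A2 was not detected. Of 34 genes of drug metabolism and efflux 24 were detected (70.6%, against 68.6% of all named genes) and 7 were bright (20.6%, against 10.0%). GSTP1, a glutathione transferase, read 161899, and CYP24A1, which breaks down vitamin D, 17530 and 10422. The efflux pumps ABCC3 (36521 and 1140) and ABCC2 (8492) were bright, whereas ABCB1, the multidrug pump, and CYP3A4, CYP1A1 and CYP2E1 were not detected.

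Central carbon metabolism was widely detected. Of 32 genes of glucose transport and glycolysis 26 were detected and 14 were bright (43.8%). LDHB (111024 and 31281), GAPDH (106360), GPI (83023), TPI1 (38902), PGK1 (35119), LDHA (33924 and 4144) and PKM (31947) led. SLC2A1, the basal glucose transporter, was bright at 4946, and HK1, which phosphorylates glucose, read 1071, while HK2 was dim at 279 with a second probe not detected. Of the liver forms, PKLR was dim and SLC2A2 was not detected. PDK4, a kinase that closes pyruvate dehydrogenase, was bright at 17562, with PDK1 at 629. The gluconeogenic genes FBP1 and G6PC1 were not detected.

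The pentose phosphate route, which supplies NADPH and ribose, was bright in 4 of 10 genes: TKT (221374), TALDO1 (50192), PGD (21629) and PGLS (18488). TKT, TALDO1 and PGD are also members of the NRF2 list. All 23 citric acid cycle genes were detected and 10 were bright (43.5%), with MDH1 at 53269, CS at 30542 and SDHA at 20701, 4838, 1814 and 1186 on its 4 probes. OGDH, a subunit of the oxoglutarate dehydrogenase complex, was dim at 44.1.

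Of 27 genes for amino acid and one-carbon metabolism 24 were detected and 10 were bright. GOT2 (41291), the mitochondrial transaminase, and CPS1 (37780), which makes carbamoyl phosphate in the urea cycle of liver and is known to be raised in lung tumors that lack STK11, were the brightest. The next step of the cycle, OTC, was not detected at 6.94, nor was ARG1, its last step, while ASS1 (10220, second probe 986.5) and ASL (1220) were detected. PYCR1 (13597), ASNS (10715) and SHMT2 (9730) make proline, asparagine and glycine, but the second probe of PYCR1 was dim at 60.3, and PHGDH, the first enzyme of serine synthesis, read 1634. GLUL, which makes glutamine, was dim at 26.8.

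**Figure D4:**
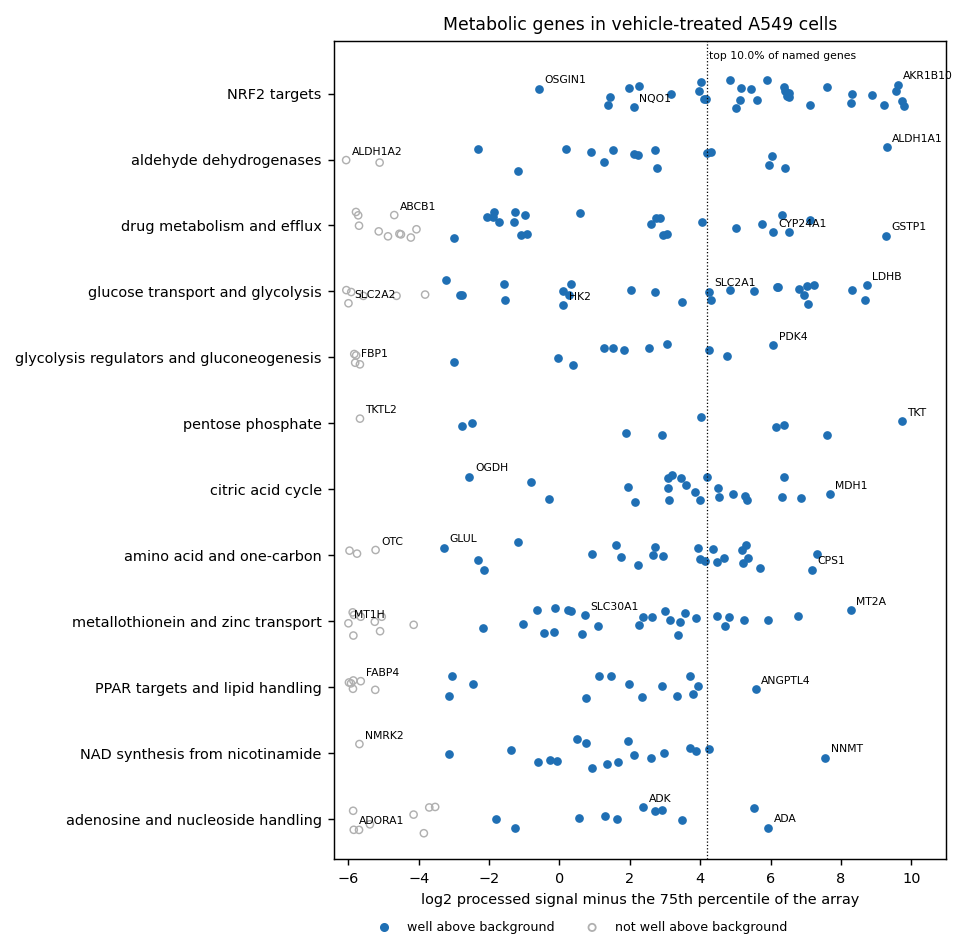
Normalized log2 signal (horizontal axis) of the genes of 12 metabolic lists in vehicle-treated A549 cells, 1 point per gene by its brightest probe, filled where well above background and open where not. Points right of the dotted line are in the top 10.0% of named genes, where 22 of 33 NRF2 targets, 14 of 32 glycolysis genes and 10 of 23 citric acid cycle genes lie.

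The labels list nicotinamide, zinc sulfate and troglitazone, an agonist of the receptor PPARG, in the medium, so the genes known to respond to these were read as well. No array of cells without the additions was analysed here, so these values are levels and not responses. Metallothioneins, which bind zinc and are induced by it, were led by MT2A at 80894, MT1A at 28520, MT1B at 15810 and 12034, and MT1E at 6781 and 91.4. MT1X read 2781 and MT1F 2302, while MT1G (14.7), MT1M (7.83) and MT1H (4.06) were not detected. The MT1 genes are close copies in one cluster and their probes may share targets. SLC30A1, the zinc exporter that zinc also induces, was dim at 430, and the importer SLC39A4 was bright at 7322.

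For the metal response element the letters TGCNCNC, with any base at each N, were searched on both strands, a looser pattern than the element's core. This pattern is common and stood in 53.7% of protein-coding named genes. The 250 bases before MT2A held 7 matches, those before MT1X 4 and those before MT1H 8, so the count of matches did not order the signals of the 3 genes. The stretches follow with the matches in capitals.
MT2A (signal 80894, chr16:56608334-56608583, plus strand): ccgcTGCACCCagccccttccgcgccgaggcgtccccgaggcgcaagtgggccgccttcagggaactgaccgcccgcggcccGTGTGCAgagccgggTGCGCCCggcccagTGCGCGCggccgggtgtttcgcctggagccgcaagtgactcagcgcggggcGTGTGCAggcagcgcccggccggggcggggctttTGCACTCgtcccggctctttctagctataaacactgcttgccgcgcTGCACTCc
MT1X (signal 2781, chr16:56682220-56682469, plus strand): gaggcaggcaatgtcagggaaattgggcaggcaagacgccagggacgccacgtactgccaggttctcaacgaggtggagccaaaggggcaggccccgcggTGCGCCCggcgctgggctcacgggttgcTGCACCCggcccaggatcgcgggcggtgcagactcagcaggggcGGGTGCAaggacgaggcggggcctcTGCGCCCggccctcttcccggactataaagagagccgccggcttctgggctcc
MT1H (signal 4.06, chr16:56669564-56669813, plus strand): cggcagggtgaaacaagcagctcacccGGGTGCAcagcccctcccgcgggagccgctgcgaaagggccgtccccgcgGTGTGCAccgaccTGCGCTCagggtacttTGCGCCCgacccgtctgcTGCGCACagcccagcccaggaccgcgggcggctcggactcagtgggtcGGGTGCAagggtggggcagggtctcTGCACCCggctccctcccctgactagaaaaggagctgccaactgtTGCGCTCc

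PPARG itself read 1280 and 475 on its 2 probes. Of 20 PPAR targets and lipid handling genes 14 were detected (70%, against 68.6% of all named genes) and 1 was bright (5%, against 10.0%). The bright one was ANGPTL4, an inhibitor of lipoprotein lipase, at 12454. FABP4, CD36 and LPL, the usual reporters of PPARG in fat cells, were not detected, at 5.18, 4.1 and 4.44, and PLIN2, the coat of lipid droplets, was dim at 569. For nicotinamide, 18 of 19 genes were detected (94.7%, against 68.6% of all named genes) and 2 were bright (10.5%, against 10.0%). The bright ones were NNMT, which methylates nicotinamide, at 49113, and NAMPT, which salvages it into NAD, at 4967 and 1709. The NAD-consuming deacetylases SIRT1 and SIRT2 read 667 and 497.

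The genes that handle adenosine bear on cordycepin, which enters and is changed by the same proteins. Of 19, 11 were detected (57.9%, below the 68.6% of all named genes) and 2 were bright (10.5%, against 10.0%). The bright ones were ADA (15857), the deaminase, and PNP (12084), which cleaves the resulting inosine. ADK, the kinase that adds the first phosphate, read 1359, and SLC29A1, the equilibrative transporter, 1954. Of the adenosine receptors ADORA2B read 2895, while ADORA1, ADORA2A and ADORA3 were not detected, at 4.51, 18 and 5.01. The concentrative transporters SLC28A1, SLC28A2 and SLC28A3 were not detected. Under the looser call of a positive and significant signal 17 of the 19 genes were detected.

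Of 58 receptor tyrosine kinases 36 were detected (62.1%) and 4 were bright (6.90%), both below the 68.6% and 10.0% of all named genes. MET, the receptor of hepatocyte growth factor, read 23999, IGF1R 8503 and AXL 6870. NTRK3, a neurotrophin receptor, read 17715, 4264 and 1316 on its 3 probes. ERBB2 (2706), FGFR1 (2603) and EGFR were in the middle class, EGFR with 1096, 294 and 56.9. ALK, ROS1 and KDR were not detected, and RET and KIT had 1 probe each detected, at 62.8 and 46.2.

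Below the receptors, 21 of 23 genes of the MAP kinase cascades were detected (91.3%) and 1 was bright (4.35%, against 10.0% of all named genes). The bright one was MAP2K3 (8514), a kinase of p38, whose second probe was dim at 496. MAPK3, an ERK gene, was dim at 312, and MAPK13 and MAPK10, a p38 and a JNK of restricted tissues, were not detected. All 20 genes of ERK feedback and output were detected, and 2 were bright (10%), IER3 (23383) and the phosphatase DUSP4 (4942). DUSP6 read 1760, AREG 1627, and HBEGF was lowest at 26.3.

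TGF-beta and BMP genes were detected in 33 of 34 cases with 6 bright (17.6%). ID1 (71454) and ID3 (5573) are BMP targets, GDF15 (61694) is a stress-induced ligand, TGFBR2 (9379) is the type II receptor, SMAD3 (10139.6) its effector, and INHBB (7328) an activin chain. The type I receptor TGFBR1 was dim at 125.

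WNT ligands were detected in 10 of 19 cases (52.6%, against 68.6% of all named genes) and none was bright (against 10.0%), WNT3 being first at 1117. Of 27 WNT receptors and effectors 23 were detected (85.2%) and 2 were bright (7.41%). The inhibitor DKK1 (16726) and the receptor LGR4 (7560) were bright, CTNNB1, beta-catenin, read 2705 and 315, AXIN2, a common target, was dim at 301, and LGR5, a stem cell marker, was not detected. Of 15 Notch genes 13 were detected (86.7%) and 1 was bright (6.67%), NOTCH3 at 9037, with the target HES1 dim at 26.8. Of 11 Hedgehog genes 9 were detected (81.8%) and none was bright, with SMO at 2795, GLI1 at 2231 and the receptor PTCH1 at 70.4.

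Nuclear receptors were detected in 38 of 48 cases with 6 bright (12.5%): NR2F6 (30612), ESRRA (16532), NR3C1, the glucocorticoid receptor, (10622), THRA (10326), NR0B1 (9166), itself on the NRF2 list, and RXRA (8356), the partner of PPARG. The second probes of ESRRA and NR3C1 were in the middle class, at 1532 and 1158, and that of THRA was dim at 440, so these calls rest on 1 probe each. VDR read 904 and ESR1 65.4, and PGR was not detected.

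**Figure D5:**
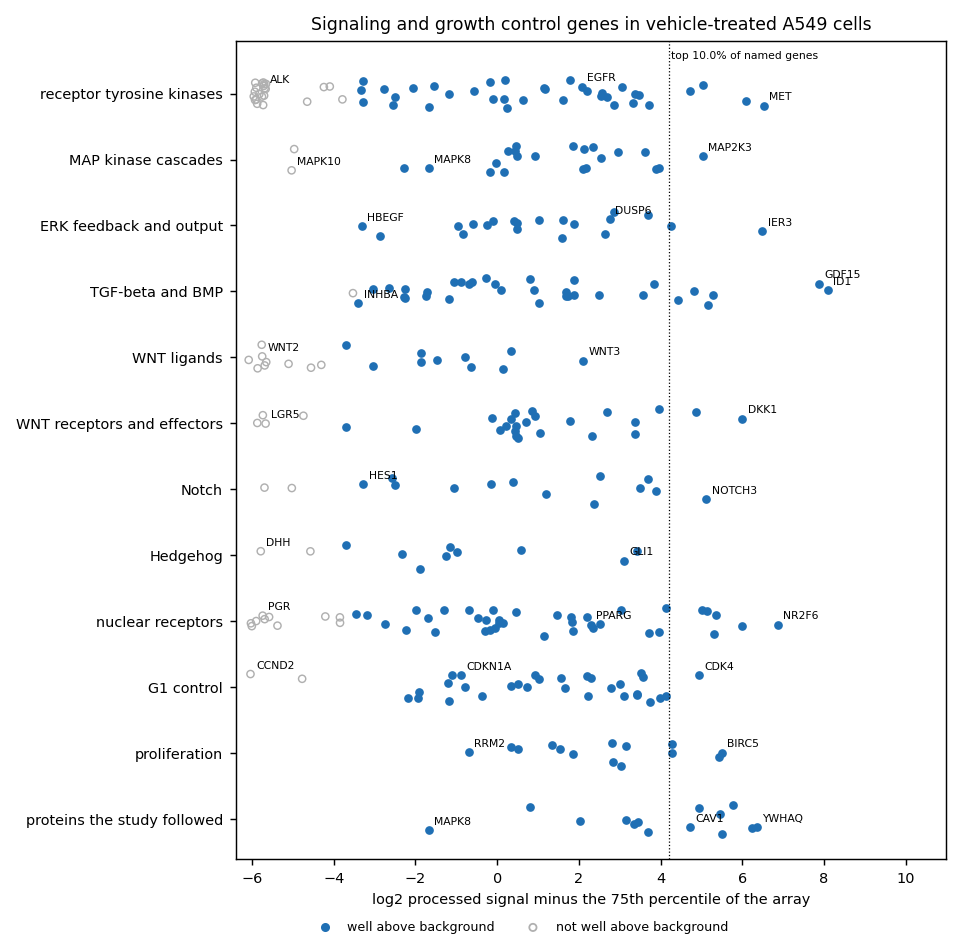
Normalized log2 signal (horizontal axis) of the genes of 12 signaling and growth control lists in vehicle-treated A549 cells, 1 point per gene by its brightest probe, filled where well above background and open where not. Points right of the dotted line are in the top 10.0% of named genes. MAPK8, at 81.8, lies far left of CAV1, at 6882, in the lowest row, where positions order probe brightness and not transcript numbers.

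Growth control genes were mostly in the middle and dim classes. Of 32 genes of G1 control, 30 were detected (93.8%, against 68.6% of all named genes) and CDK4 alone was bright at 8050 (3.12%, against 10.0%). MYC read 4107, RB1 1189, and CDKN1A, a cyclin kinase inhibitor, 142. All 14 proliferation genes with a probe were detected, BIRC5 (11788), PCNA (11137), TYMS (5095) and CCNB1 (5033, second probe 1087) bright and MKI67 at 941.

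The cell line was also checked at the genes known to be lost from it. CDKN2B was not detected at 9.50. CDKN2A had one probe at 4.60, not detected, and another, to a different transcript, at 4587. MTAP had probes at 4.79 and 4.26, not detected, and another to the same transcript at 1513. Of the 6 probes of these genes 4 were thus not detected and 2 were, and what the 2 bind was not tested. The probe of CDKN2B lay above the highest negative control spot, the other 3 undetected probes below it. Of the genes that are mutated in A549 cells, STK11 (2384), SMARCA4 (1249) and KEAP1 (1077) gave signals in the middle class, which say nothing about the protein made.

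The genes of the proteins that the study followed after cordycepin were read as RNA signals after 48 h with DMSO. These are neither protein levels nor levels before treatment. All 14 genes were detected and 7 were bright. CAV1 read 6882 and 4071 on its 2 probes. MAPK8, the gene of JNK1, was dim on each of its 3 probes, at 81.8, 65.2 and 56.9. MAPK9, the gene of JNK2 and not among the 14, was dim at 358 and 84.1, both probes detected. FOXO3, the transcription factor Foxo3a, read 2844, 2052 and 155, DUSP5 3372 and AKT1 2651. BAX, which permeabilizes mitochondria, read 11900 and 219. The genes of the 14-3-3 proteins, which hold phosphorylated FOXO3 in the cytoplasm, were YWHAQ (21269.8, second probe 2985), YWHAG (19590), SFN (14128), YWHAB (11371) and YWHAZ (8015, second probe 2159), all bright, YWHAH (1065) in the middle class and YWHAE (452) dim. Each of the study's genes with more than 1 probe had all of them detected, although among others the probes of BAX and FOXO3 differed by over 10-fold.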

How the data were processed

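RNA of vehicle-treated A549 cells was labelled with Cy3 and hybridized to 1 Agilent whole-genome array. The authors deposited the scanner output, whose intensity values were background-subtracted and detrended by Feature Extraction 11.5.1.1 (protocol GE1_1105_Oct12). The study's methods name Cy3 and Cy5, whereas the deposited files hold 1 colour. The deposited value table held the mean processed intensity of each probe, within 0.01 log2 for 58155 of 58201 probes, and its columns for other arrays were not used.

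Of 62976 spots, 60901 were non-control and 106 were left out as outliers. Of 58200 probes 28500 were detected, with at least 50% of their spots well above background. No spot was saturated (0). The log2 scale used the 75th percentile of the deposited signals. Accessions without version were matched to the RefSeq table of GRCh38.p14 (31103 probes). The 48 lists hold 992 genes, 23 of them without a named probe. Named were the 30 brightest genes, the brightest and the defining undetected list members, the study's proteins, and the genes at the edge of detection, and others where a sentence lists them. Members and lists were chosen with earlier results of these data known. On simulated data 117 of 117 genes set bright were recovered over 58200 probes. These genes were set far above the others and as detected, so their recovery checks the counting steps alone. It does not bear on the disagreement between real probes of a gene. Python 3.11.15, pandas 2.3.3, R 4.3.3 and limma 3.58.1 (normexp alternative) were used. Alternatives are given in the closing section. The number of arrays (1) limits the precision.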

Additional observations from a re-analysis of the deposited data

Results flagged for a closer look

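Probes without a RefSeq gene name lie outside the counts of genes. Of these 27097 probes, 8163 were well above background (30.1%), a signal above the control spots, of which 0 of 303 were. They include 3083 of 9747 Ensembl transcripts (31.6%), 2522 of 10719 entries of a long noncoding RNA catalogue (23.5%) and 181 of 408 expressed sequence tag clusters (44.4%). The brightest, at 358224, was an Ensembl transcript.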

How the results depend on the processing

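No count of detected probes, or of genes over a class of lists, moved by 1.5 times under any alternative run. Called as positive and significant against background, 18248 genes were detected, and above the 95th percentile of the negative controls 18274, with 28500 probes becoming 39050 and 39047. Under the first of these the basal and squamous list rose from 2 to 7 detected genes, the ciliated list from 5 to 10 and the adenosine list from 11 to 17. With every probe required, 13834 genes were detected, with alveolar type II genes at 7, mucins at 2 and the chromosome 9 genes at 0. With the median over probes, 72 of the 100 brightest genes were shared, and with normexp 93. The other scalings, kept outlier spots, every spot and the deposited value table each shared 100. Of 48 lists, 7, 5, 1 and 6 moved by over 1.5 times under the 4 settings of detection and probe choice, in the order given here: positive and significant, negative controls, median probe, every probe. No paired analysis was possible because 1 array was described and its number only names it. One array limits every value: no error between cultures can be given, and a signal near the negative controls does not show that a gene is silent.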
